A study of Arabidopsis thaliana with 24 samples.

Results

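The difference between agb1 and wild-type (WT) Arabidopsis thaliana seedlings that had received only solvent was compared between 1 h and 3 h. The 12 libraries with DMSO alone were taken, of 24 in the series, 3 for each of 4 groups: agb1 at 1 h, WT at 1 h, agb1 at 3 h and WT at 3 h. For every locus the agb1 difference (agb1 minus WT, as a log2 fold change) was estimated at each time, and the change is the difference at 3 h minus that at 1 h. All seedlings were whole, 4 days old, of the Col-0 background, grown in liquid medium with 1% sucrose at 21 °C on a shaker and moved to dishes with 0.2% DMSO for the stated time. The labels name agb1 only as a genotype, without its allele, and the remaining 12 libraries received the lipid NAE 18:3 in the same solvent. The comparison asks which genotype differences are present at both times and which appear, vanish or turn round between them.

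AGB1 is the gene for the G protein beta subunit. Heterotrimeric G proteins are a complex of alpha, beta and gamma subunits at the plasma membrane, and they pass signals on when the alpha subunit exchanges its guanine nucleotide. In Arabidopsis the beta subunit works with the gamma subunits AGG1, AGG2 and AGG3, with the alpha subunit GPA1 and with extra-large alpha-like proteins, and RGS1 speeds the return to the resting state. Mutants without the beta subunit are known for altered growth, defence and responses to hormones and sugar.

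Reads of AGB1 (AT4G34460) were found in all agb1 libraries. It stood at 40.7, 49.8 and 47.5 CPM (counts scaled to TMM-normalised library size) in agb1 and at 50.9, 48.3 and 53.7 CPM in WT at 1 h. At 3 h it stood at 28.8, 25 and 35.4 CPM in agb1 and at 53.7, 54.8 and 56.5 CPM in WT. The genotypes overlapped at 1 h, with a log2 difference of -0.15 (SE 0.12, adjusted p = 0.535), and were apart at 3 h, with -0.89 (SE 0.12, adjusted p = 0.000229). All adjusted p-values come from edgeR's quasi-likelihood test with Benjamini-Hochberg adjustment over all loci tested. The transcript therefore gives no check of the genotype labels at 1 h. The change of AGB1 was -0.74 (SE 0.17, adjusted p = 0.0137), and it missed the threshold without agb1 1 h replicate 2 (adjusted p = 0.052). For GPA1 (AT2G26300), AGG1 (AT3G63420), AGG3 (AT5G20635), XLG1 (AT2G23460), XLG2 (AT4G34390) and XLG3 (AT1G31930) neither difference was called, and their changes lay between -0.26 and 0.31. AGG2 (AT3G22942) was lower in agb1 at 3 h (-0.39) and RGS1 (AT3G26090) higher (0.23), both without a called change (adjusted p = 0.0538 and 0.511).

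Several libraries stood apart before any gene was considered. Totals ran from 28.8 to 61.9 M counts in agb1 at 1 h, 18.0 to 44.2 M in WT at 1 h, 41.1 to 51.9 M in agb1 at 3 h and 25.0 to 25.7 M in WT at 3 h, so at 3 h depth differed by genotype. WT 1 h replicate 2 was the shallowest and held 5.29% ribosomal, 1.18% plastid and 1.74% mitochondrial counts, against at most 0.0863%, 0.0613% and 0.0709% in the other DMSO libraries. At 1 h the libraries also tilted with exon length: the Spearman correlation across loci between a library's deviation and exon length ran from 0.044 to 0.293 in agb1 and from -0.362 to -0.022 in WT, and at 3 h from -0.081 to -0.009 and from -0.039 to 0.079. The spread between replicates, as edgeR's biological coefficient of variation, was 0.0809 in agb1 and 0.176 in WT at 1 h, and 0.199 in agb1 and 0.146 in WT at 3 h. Nothing in the labels says that replicates are separate cultures, so the p-values measure the spread between these samples. The 2 times lie in separate tables, so time and table cannot be told apart for any difference between 1 h and 3 h. Root and shoot markers were both present, as whole seedlings imply, and none of the 15 root markers averaged under 1 CPM.

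The agb1 difference changed between 1 h and 3 h at 2651 of 21375 loci tested (12.4%), and far more loci differed between the genotypes at 3 h than at 1 h in the joint fit. At 1 h 181 loci were higher and 143 lower in agb1, 324 in all (1.52%). At 3 h 2346 were higher and 2981 lower, 5327 in all (24.9%). The change was positive at 1111 loci (5.2%) and negative at 1540 (7.2%), whereas RLE scaling gave 1350 and 1364, a filter at a mean of 1 CPM 1346 and 1314, and DESeq2 1929 and 1778, so which sign prevails depends on the processing. Among the 15535 loci averaging 5 CPM or more, the median size of the agb1 difference was 0.13 at 1 h and 0.22 at 3 h, and 135 (0.869%) and 543 (3.5%) differed at least 2-fold, called or not. When each time was fitted on its own 6 libraries, 2057 loci were called at 1 h and 2466 at 3 h, so the ratio of the 2 counts depends on which libraries share the estimate of spread. Leaving out 1 library at a time gave 1368 to 3401 called changes, with the largest losses without agb1 1 h replicate 1 (1368), WT 1 h replicate 1 (1428) and agb1 1 h replicate 2 (1622). The same gave 47 to 150 calls at 1 h without any 1 of the 6 libraries of that time, and 587 and 533 without agb1 3 h replicates 2 and 3.

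Loci were sorted by 3 calls. A locus was stable when the agb1 difference was called in the same direction at both times, the change was not called and its 95% interval lay within -1 to 1. It was specific to a time when the change was called and the difference was called only then, and reversed when both differences were called in opposite directions and the change was called too. There were 106 stable loci (0.496%), 55 higher and 51 lower in agb1, 70 loci specific to 1 h (0.327%), 2217 specific to 3 h (10.4%) and 35 reversed (0.164%), of which 27 were higher at 1 h and lower at 3 h. A further 11 kept their direction with a called change of size, 27 kept it with an interval too wide to call stable, and 318 had a called change with neither difference called. Of the 324 loci called at 1 h, 233 had the same sign at 3 h, and 144 were called again in that direction, whereas the 179 loci called at both times made up 55.2% of the 1 h calls and 3.36% of the 3 h calls. A further 2931 loci were called at 3 h alone without a called change, and 75 at 1 h alone, so these are not shown to be specific to a time. With the calls of each time taken from its own 6 libraries, a setting chosen after seeing the data, 212 loci were stable, 75 of them among the 106, and 338, 1422 and 109 were specific to 1 h, specific to 3 h and reversed. Loci specific to 3 h numbered 1256 without agb1 1 h replicate 1 and 1316 without WT 1 h replicate 1. Without 1 library at a time stable loci numbered 13 to 175, loci specific to 1 h 12 to 126, and reversed loci 7 to 65. The lowest of these counts came from leaving out agb1 1 h replicate 2, agb1 1 h replicate 1, and agb1 or WT 1 h replicate 1, and the highest from leaving out agb1 3 h replicate 2.

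**Figure D1:**
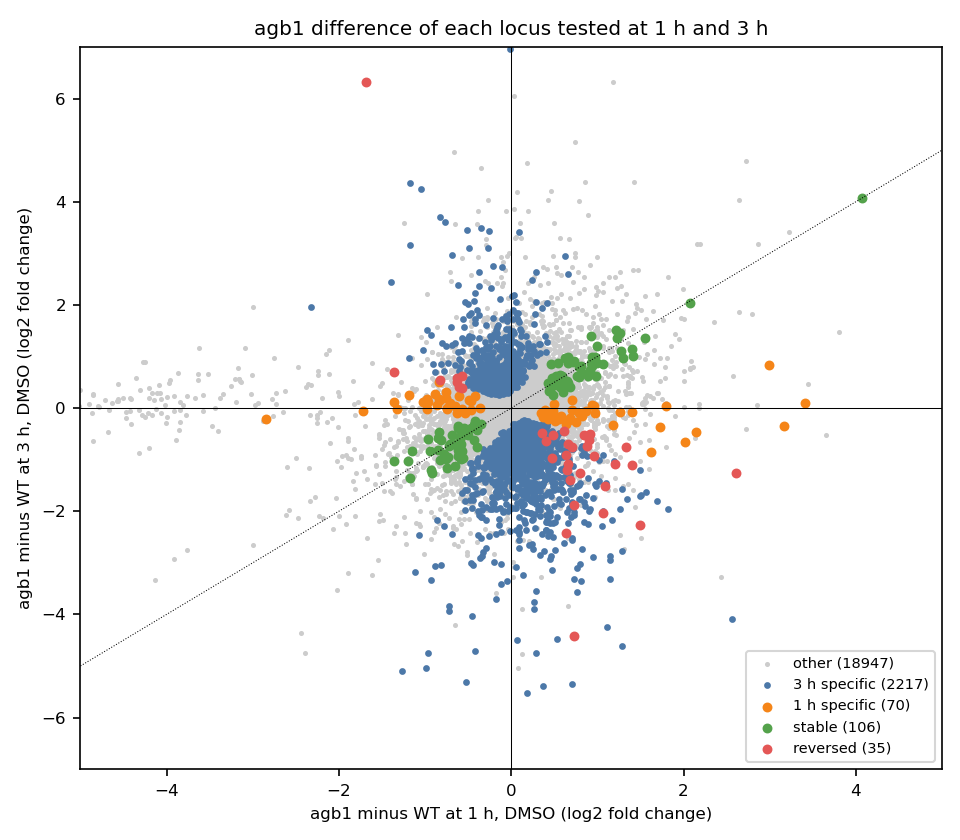
agb1 minus WT at 1 h (horizontal) and at 3 h (vertical) as log2 fold changes for each locus tested, coloured by class, with equal differences on the dotted line. The 2217 loci specific to 3 h spread along the vertical axis, the 70 specific to 1 h along the horizontal one, the 106 stable loci lie along the dotted line and the 35 reversed loci in the corners off it. All other loci are grey, and 11 loci lie outside the plotted range.

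The largest change of all loci named here was in FSD1 (AT4G25100), the iron superoxide dismutase that removes superoxide in the chloroplast and cytosol. FSD1 stood at 58, 69.7 and 81.5 CPM in agb1 and at 270, 249 and 156 CPM in WT at 1 h. At 3 h it stood at 385, 442 and 474 CPM in agb1 and at 5.09, 5.4 and 5.65 CPM in WT. The groups did not overlap at either time, and the order of the genotypes turned round. The agb1 difference was -1.69 at 1 h (SE 0.18, adjusted p = 0.0014) and 6.33 at 3 h (SE 0.23, adjusted p = 1.41e-08), a change of 8.02 (SE 0.29, adjusted p = 2.67e-08). FSD1 was reversed in all 21 alternatives. The 3 h libraries with NAE 18:3 showed the same order, with 548 to 582 CPM in agb1 and 3.13 to 9.89 CPM in WT, on a scale set over all 24 libraries.

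In Arabidopsis FSD1 and the copper/zinc superoxide dismutases CSD1 and CSD2 replace each other as the copper supply varies. When copper is short, the transcription factor SPL7 acts at GTAC core motifs of FSD1 and of metal transporter genes, and microRNAs lower CSD1, CSD2, the chaperone gene CCS and other copper protein genes. A list of 32 genes of this response and of its superoxide dismutases was drawn up after the values of FSD1 had been seen, so its counts are a description. Of its 27 tested members, 2 were called at 1 h (1.52% of all loci), and at 3 h 6 were higher and 8 lower in agb1 (11.0% and 13.9% of all loci). The called change was positive at 6 and negative at 4 (5.2% and 7.2% of all loci).

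CSD2 (AT2G28190), the plastid copper/zinc superoxide dismutase, moved opposite to FSD1. It stood at 834, 823 and 911 CPM in agb1 and at 914, 734 and 788 CPM in WT at 1 h, and at 680, 586 and 638 CPM in agb1 and at 1570, 1450 and 1540 CPM in WT at 3 h. The genotypes overlapped at 1 h and were apart at 3 h, with a change of -1.34 (SE 0.14, adjusted p = 0.000139). CSD1 (AT1G08830), the cytosolic enzyme, had a change of -0.68 (SE 0.14, adjusted p = 0.00723), the plantacyanin gene ARPN (AT2G02850) one of -1.91 (SE 0.25, adjusted p = 0.000547) and the plastid metal pump gene HMA1 (AT4G37270) one of -0.66 (SE 0.15, adjusted p = 0.0146). CCS (AT1G12520) was lower at 3 h (-0.48), but its change of -0.37 was not called (adjusted p = 0.0941).

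The metal transporter gene ZIP2 (AT5G59520) moved with FSD1. It stood at 9.54, 7.66 and 7.41 CPM in agb1 and 10.4, 13.2 and 12.2 CPM in WT at 1 h, and at 22.3 to 24.5 CPM in agb1 and 6.25, 7.18 and 3.39 CPM in WT at 3 h. It was specific to 3 h, with a change of 2.59 (SE 0.29, adjusted p = 0.000188). YSL3 (AT5G53550) and YSL2 (AT5G24380), transporters of metals bound to nicotianamine, changed by 1.76 (SE 0.20) and 1.13 (SE 0.23), and the copper chaperone gene CCH (AT3G56240) by 1.04 (SE 0.14). The adjusted p-values of these 3 were 0.000176, 0.0091 and 0.00084. IRT2 (AT4G19680), an iron transporter gene, also had a called change but stayed under 1 CPM in all 12 libraries. SPL7 (AT5G18830), FSD2 (AT5G51100), FSD3 (AT5G23310), MSD1 (AT3G10920) and COPT1 (AT5G59030) had no called difference at either time. The same held for the metal reductase gene FRO3 (AT1G23020), at 0.15 and 0.03, and the metal transporter gene ZIP4 (AT1G10970), at 0.27 and 0.53. COPT2 (AT3G46900) was not called either and stayed under 1 CPM. The copper transporter gene COPT6 was lower in agb1 at both times, at -0.55 and -0.51.

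The windows of 300 bases upstream of the annotated start of FSD1, ZIP2, YSL2, CCH and YSL3 are shown because these loci moved together and the letters GTAC, in capitals, are the core of the copper response element. They run 5′ to 3′ on the gene's strand in TAIR10.1, from the RefSeq genome, and the reads had been aligned to TAIR10.
FSD1 (chr4:12887012-12887311, minus strand): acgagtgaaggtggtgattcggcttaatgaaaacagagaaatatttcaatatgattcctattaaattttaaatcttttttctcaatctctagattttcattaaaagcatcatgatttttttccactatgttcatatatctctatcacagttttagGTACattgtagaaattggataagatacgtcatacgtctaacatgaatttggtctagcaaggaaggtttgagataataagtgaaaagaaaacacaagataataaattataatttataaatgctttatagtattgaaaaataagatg
ZIP2 (chr5:23992909-23993208, minus strand): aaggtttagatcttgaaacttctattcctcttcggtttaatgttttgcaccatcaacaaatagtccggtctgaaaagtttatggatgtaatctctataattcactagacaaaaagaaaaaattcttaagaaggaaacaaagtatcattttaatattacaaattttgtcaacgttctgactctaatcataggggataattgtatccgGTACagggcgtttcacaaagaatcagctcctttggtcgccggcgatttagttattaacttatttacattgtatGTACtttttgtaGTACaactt
YSL2 (chr5:8323595-8323894, plus strand): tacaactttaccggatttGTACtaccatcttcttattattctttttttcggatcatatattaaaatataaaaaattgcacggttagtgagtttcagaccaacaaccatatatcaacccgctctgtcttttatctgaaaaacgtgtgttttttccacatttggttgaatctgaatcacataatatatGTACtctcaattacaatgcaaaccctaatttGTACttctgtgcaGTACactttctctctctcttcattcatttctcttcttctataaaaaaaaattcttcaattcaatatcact
CCH (chr3:20864728-20865027, minus strand): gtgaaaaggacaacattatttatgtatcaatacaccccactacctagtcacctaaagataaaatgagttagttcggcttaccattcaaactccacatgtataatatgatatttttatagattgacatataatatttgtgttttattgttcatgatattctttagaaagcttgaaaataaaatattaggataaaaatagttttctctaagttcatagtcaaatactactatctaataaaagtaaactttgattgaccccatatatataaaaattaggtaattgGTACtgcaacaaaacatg
YSL3 (chr5:21754951-21755250, plus strand): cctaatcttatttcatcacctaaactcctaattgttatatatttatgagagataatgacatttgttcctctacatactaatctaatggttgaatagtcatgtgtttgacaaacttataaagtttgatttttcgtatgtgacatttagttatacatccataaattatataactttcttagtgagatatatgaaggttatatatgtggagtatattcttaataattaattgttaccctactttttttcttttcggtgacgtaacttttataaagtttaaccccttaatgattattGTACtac
GTAC reads the same on both strands. It occurred in the window of all 6 tested copper-related loci with a positive called change, of 2 of the 4 with a negative one and of 3 of the 17 without a called change. It occurred in 39.7% of the 27443 windows of protein-coding nuclear genes, so a match is a description and not a binding site. In FSD1 the motif began 145 bases before the start, and in YSL2 it occurred at 4 places.

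**Figure D2:**
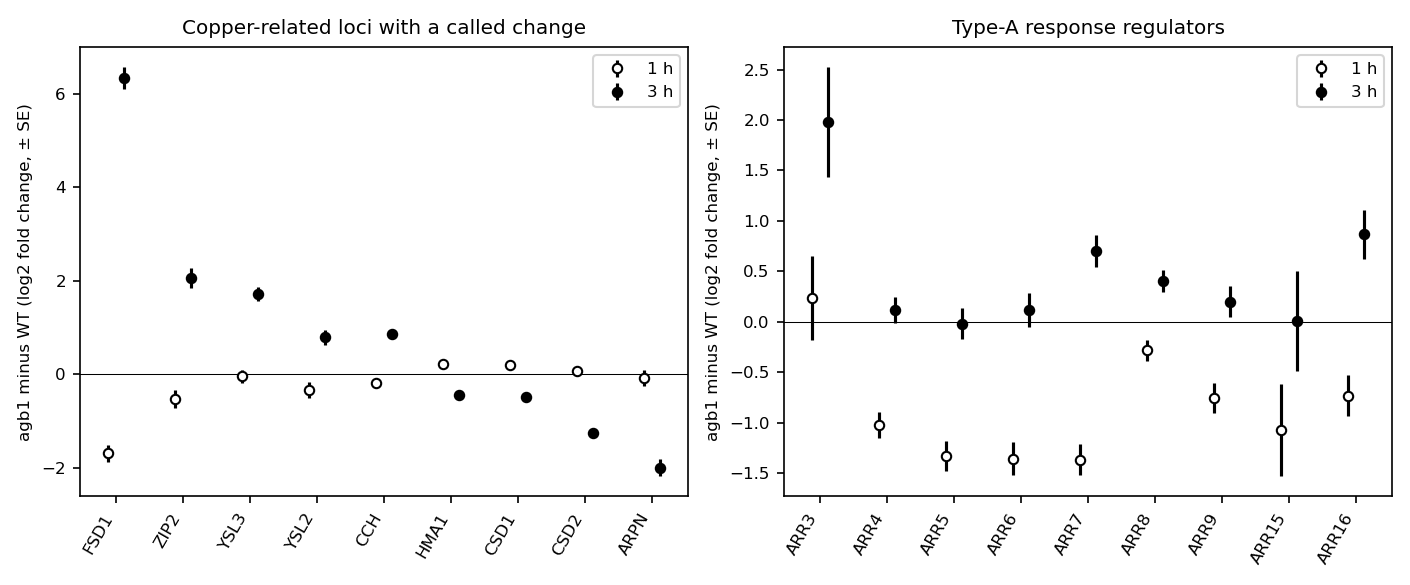
Left, agb1 minus WT (log2 fold change, bars 1 SE) at 1 h (open) and 3 h (filled) for the copper-related loci with a called change, without IRT2, which was under 1 CPM. FSD1 lies at -1.69 at 1 h and at 6.33 at 3 h. Right, the same for the 9 tested type-A response regulators, of which ARR4 to ARR7 and ARR9 were lower in agb1 at 1 h.

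Other loci also turned round, chiefly from higher to lower in agb1. SDH1-2 (AT2G18450), a flavoprotein subunit gene of mitochondrial succinate dehydrogenase, stood at 7.17, 6.8 and 5.75 CPM in agb1 and 4.09, 4.14 and 3.7 CPM in WT at 1 h. At 3 h it stood at 4.66, 3.62 and 5.19 CPM in agb1 and 93.8, 83.7 and 110 CPM in WT. Only WT at 3 h was high, and the change was -5.15 (SE 0.21, adjusted p = 3.75e-08). The small difference at 1 h, 0.73 (adjusted p = 0.0327), lost its call without any 1 of 5 of the 6 libraries of that time, so its place among the reversed loci rests on them. POK1 (AT3G17360), a kinesin gene of the cytokinesis machinery, showed the same layout, with 15.2 ± 1.22 CPM in agb1 and 9.85 ± 1.41 CPM in WT at 1 h, and 19.9 ± 3.48 CPM in agb1 and 107 ± 8.74 CPM in WT at 3 h (SD, n = 3 each). Its change was -3.06 (SE 0.20, edgeR adjusted p = 3.12e-06), and it was reversed in 9 of 21 alternatives and specific to 3 h in the others.

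CORI3 (AT4G23600), a cystine lyase gene induced by coronatine and jasmonate, was reversed in all 21 alternatives. It stood at 47.6, 60.1 and 36.6 CPM in agb1 and 7.9, 4.74 and 10.4 CPM in WT at 1 h, and at 51, 38.5 and 40.2 CPM in agb1 and 118, 92.7 and 99.1 CPM in WT at 3 h. The agb1 level was alike at both times while the WT level was lower than agb1 at 1 h and higher at 3 h. The agb1 difference was 2.61 at 1 h and -1.25 at 3 h, a change of -3.86 (SE 0.34, adjusted p = 6.81e-05). G3Pp1 (AT3G47420), a glycerol-3-phosphate transporter gene known from phosphate starvation, was likewise reversed in all 21 alternatives. It stood at 42.5, 47 and 34 CPM in agb1 and 20.7, 16.6 and 21.3 CPM in WT at 1 h, and at 22.7, 23 and 22.9 CPM in agb1 and 88.8, 94.4 and 97.4 CPM in WT at 3 h, a change of -3.10 (SE 0.17, adjusted p = 9.97e-07).

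Of the 8 loci that were lower in agb1 at 1 h and higher at 3 h, the type-A response regulator gene ARR7 came next after FSD1 in size of change. The others named by size were ACR4 (AT1G69040), an ACT-domain protein gene, with a change of 1.36 (SE 0.22, adjusted p = 0.00209), and AT1G08610, a pentatricopeptide repeat protein gene that overlaps a neighbour on the opposite strand, with 1.22 (SE 0.19, adjusted p = 0.0016). ACR4 and AT1G08610 were each reversed in 14 of 21 alternatives.

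**Figure D3:**
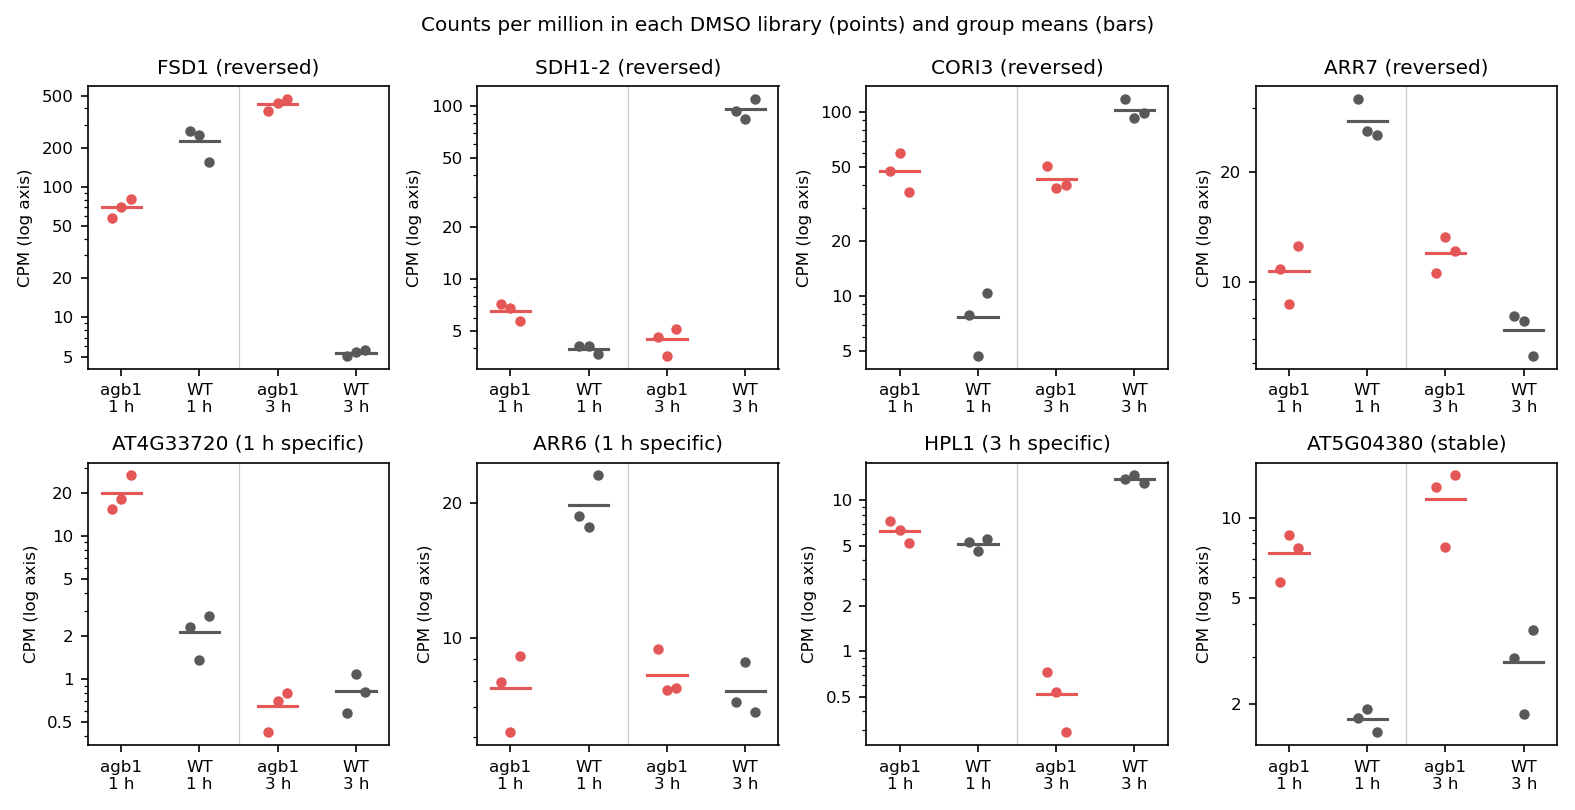
TMM-scaled CPM on a logarithmic axis for 8 loci in each of the 12 DMSO libraries (points) with group means (bars), agb1 in red and WT in grey. FSD1, SDH1-2, CORI3 and ARR7 turn round, AT4G33720 and ARR6 differ at 1 h alone, HPL1 at 3 h alone, and AT5G04380 is higher in agb1 at both times.

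Cytokinin signals through histidine kinases to type-B response regulators, which switch on the type-A genes, early targets that damp the pathway. Of the 9 tested type-A genes 5 were lower in agb1 at 1 h (0.669% of all loci), each with a called change. At 3 h none was lower (13.9% of all loci). ARR6 (AT5G62920), which overlaps a neighbour on the opposite strand, stood at 7.97, 6.16 and 9.1 CPM in agb1 and 18.7, 17.7 and 23.1 CPM in WT at 1 h, and at 9.46, 7.67 and 7.72 CPM in agb1 and 7.2, 8.83 and 6.83 CPM in WT at 3 h. Only the WT libraries at 1 h were high, and the change was 1.47 (SE 0.23, adjusted p = 0.00198). ARR5 (AT3G48100) stood at 10.6, 10 and 11.6 CPM in agb1 and 24.4, 25.5 and 31.1 CPM in WT at 1 h, and at 5.63, 6.49 and 4.63 CPM in agb1 and 6.21, 6.09 and 4.66 CPM in WT at 3 h, a change of 1.31 (SE 0.21, adjusted p = 0.00253). ARR7 (AT1G19050) stood at 10.9, 8.69 and 12.6 CPM in agb1 and 31.8, 25.9 and 25.3 CPM in WT at 1 h, and at 10.6, 13.3 and 12.2 CPM in agb1 and 8.07, 7.83 and 6.29 CPM in WT at 3 h. It was reversed, with a change of 2.07 (SE 0.22, adjusted p = 0.000124), in all 21 alternatives. ARR5 and ARR6 were specific to 1 h in all 21.

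ARR4 (AT1G10470) and ARR9 (AT3G57040) were also lower at 1 h, at -1.02 and -0.75, and had called changes of 1.14 and 0.95. ARR8 (AT2G41310) and ARR16 (AT2G40670) were higher at 3 h, by 0.40 and 0.87, with called changes of 0.69 and 1.60, and ARR3 (AT1G59940) was higher by 1.98 without a called change (adjusted p = 0.119). In the cytokinin list, 5 of 17 tested members were lower in agb1 and none higher at 1 h, against 0.669% and 0.847% of all loci. At 3 h 4 were higher and 2 lower, against 11.0% and 13.9% of all loci. The lower ones were CKX5 (AT1G75450), a cytokinin-degrading oxidase gene, and the receptor gene AHK4 (AT2G01830). The change was called at 7, all positive (5.2% of all loci), with a median of 0.87 over the list and -0.01 over all loci tested. Positive called changes numbered 7 also with RLE scaling, DESeq2, exon length offsets, a replicate block and without WT 1 h replicate 2, with 1 negative besides under the block. With DESeq2 or the block 1 member was higher at 1 h.

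The 70 loci specific to 1 h were higher in agb1 at 41 and lower at 29. AT4G33720, annotated as a protein of the family of pathogenesis-related protein 1, had the largest difference of those named. It averaged 20.0 ± 5.76 CPM in agb1 and 2.15 ± 0.716 CPM in WT at 1 h (SD, n = 3 each), and stood at 0.426, 0.704 and 0.805 CPM in agb1 and 0.579, 1.09 and 0.814 CPM in WT at 3 h. The groups were far apart at 1 h and overlapped near 1 CPM at 3 h, with a change of -3.51 (SE 0.47, adjusted p = 0.000717). MLS (AT5G03860), malate synthase of the glyoxylate cycle by which seedlings turn stored fat to sugar, stood at 43.5, 95.3 and 43.8 CPM in agb1 and 14.8, 15.6 and 14.5 CPM in WT at 1 h. At 3 h it stood at 6.56, 5.37 and 6.17 CPM in agb1 and 8.52, 8.49 and 11.6 CPM in WT, a change of -2.69 (SE 0.39, adjusted p = 0.00151). Its agb1 1 h replicate 2 was far above the other 2, and without it MLS was reversed. AT4G14020, annotated as a protein of the rapid alkalinization factor family of peptides, had a change of -1.34 (SE 0.25) and UMAMIT17 (AT4G08300), a transporter family gene lower at 1 h, one of 1.45 (SE 0.27).

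Among clock genes, GI (AT1G22770) and LNK1 (AT5G64170), both genes of the day phase, were higher in agb1 at 1 h by 0.86 and 0.94, and were not called at 3 h, at -0.06 and 0.07. Their changes of -0.93 (SE 0.20, adjusted p = 0.0115) and -0.87 (SE 0.24, adjusted p = 0.0326) placed them among the loci specific to 1 h. PRR3 (AT5G60100) and FKF1 (AT1G68050) were specific to 3 h and lower in agb1, with changes of -0.76 and -0.63. In the clock list the change was called at 4 of 26 members, a share near the 12.4% of all loci. All 4 were negative, against 7.2% of all loci. At 1 h 3 of the 26 were higher in agb1, against 0.847% of all loci, and 1 without WT 1 h replicate 2. In that fit GI and LNK1 were therefore not both specific to 1 h.

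The loci specific to 3 h were higher in agb1 at 925 and lower at 1292. HPL1 (AT4G15440), annotated as hydroperoxide lyase 1, stood at 7.26, 6.38 and 5.19 CPM in agb1 and 5.26, 4.58 and 5.5 CPM in WT at 1 h, and at 0.726, 0.533 and 0.291 CPM in agb1 and 13.9, 14.6 and 12.9 CPM in WT at 3 h. The genotypes lay side by side at 1 h and were apart at 3 h, a change of -5.03 (SE 0.32, adjusted p = 3.12e-06). LOX2 (AT3G45140), the plastid lipoxygenase that starts jasmonate synthesis, stood at 173, 131 and 160 CPM in agb1 and 77.8, 95 and 213 CPM in WT at 1 h, and at 80.9, 35.8 and 65.4 CPM in agb1 and 838, 783 and 842 CPM in WT at 3 h. Its WT libraries at 1 h were uneven, and the change was -4.03 (SE 0.53, adjusted p = 0.00126). AT5G44440, a berberine bridge enzyme family gene, had 11, 10.2 and 6.77 CPM in agb1 and 16, 12.9 and 26.2 CPM in WT at 1 h, apart but not called (-0.99, adjusted p = 0.097), and 0.4, 0.457 and 0.805 CPM in agb1 and 15.1, 20 and 19.9 CPM in WT at 3 h, with a change of -4.05 (SE 0.44, adjusted p = 0.000197).

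SHOC1 (AT5G52290), known for its part in meiotic crossing over, stood at 1.28, 1.2 and 0.939 CPM in agb1 and at 21.4, 19.6 and 24.1 CPM in WT at 3 h. At 1 h it stood at 1.27, 1.8 and 1.33 CPM in agb1 and 0.566, 1.2 and 0.456 CPM in WT, in the opposite order and not called (adjusted p = 0.0784). With DESeq2, with all 24 libraries and without WT 1 h replicate 2 it was reversed. Its change was -5.36 (SE 0.38, adjusted p = 5.99e-06), and it overlaps a neighbour on the opposite strand, whose reads cannot be told apart without a stated strand setting. In the other direction AT1G52270, an uncharacterised protein gene, had a change of 4.38 (SE 0.44), and the acyl carrier protein desaturase gene AT3G02620 one of 1.94 (SE 0.43). AT1G52270 stood at 5.85, 7.66 and 7.15 CPM in agb1 and at 13.6, 8.77 and 12.7 CPM in WT at 1 h, and at 2.73, 6.07 and 4.97 CPM in agb1 and at 0.29, 0.479 and 0.362 CPM in WT at 3 h. The groups did not overlap at either time, in opposite order, but its 1 h difference of -0.77 was not called (adjusted p = 0.144), and with all 24 libraries in the fit the locus was reversed.

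Nuclear genes of the photosynthetic apparatus were mostly lower in agb1 at 3 h. All 15 tested light-harvesting antenna genes were lower at 3 h, against 13.9% of all loci, with list medians of -0.04 at 1 h and -0.80 at 3 h. At 1 h none of the 15 was called by edgeR or DESeq2 in the joint fit, 3 were lower at an unadjusted p under 0.05, and 2 were called lower in the fit of the 6 libraries of 1 h alone. The photosystem subunit gene PSBR (AT1G79040) was lower at both times and stable, at -0.58 and -0.52. With exon length offsets no photosystem subunit gene was called at 1 h, so PSBR was not stable there. Among the 89 tested plastid-encoded loci none was called at 3 h by edgeR or DESeq2, nor at an unadjusted p under 0.05, and their median was 0.14. The joint spread of these loci includes WT 1 h replicate 2, with 1.18% plastid counts, so the fit could hardly call them. Without that library 5 were called higher in agb1 at 3 h, against 2665 of 21623 loci. In the fit of the 6 libraries of 3 h alone 1 was called higher. LHCB3 (AT5G54270) stood at 706, 685 and 741 CPM in agb1 and 503, 468 and 794 CPM in WT at 1 h, and at 334, 419 and 426 CPM in agb1 and 758, 928 and 946 CPM in WT at 3 h, a change of -1.43 (SE 0.25, adjusted p = 0.00368). LHCB2.1 (AT2G05100), another antenna protein of photosystem II, changed by -1.13 (SE 0.21, adjusted p = 0.00483). The change was called, always negative, at 12 of 15 antenna genes, 11 of 20 Calvin cycle genes, 9 of 23 photosystem subunit genes and 6 of 23 chlorophyll synthesis genes, against 7.2% of all loci. Without WT 1 h replicate 2 these counts were 7, 3, 1 and 4.

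FBA1 (AT2G21330), the plastid aldolase of the Calvin cycle, stood at 420, 405 and 499 CPM in agb1 and 540, 437 and 512 CPM in WT at 1 h, and at 322, 294 and 334 CPM in agb1 and 642, 936 and 967 CPM in WT at 3 h. Its change was -1.25 (SE 0.21, adjusted p = 0.00282). GUN5 (AT5G13630), the magnesium chelatase subunit of chlorophyll synthesis, changed by -1.21 (SE 0.18, adjusted p = 0.00151). GLK1 (AT2G20570), a transcription factor that drives antenna and chlorophyll genes, stood at 55.2, 54.1 and 52.3 CPM in agb1 and 68.8, 59.3 and 60.2 CPM in WT at 1 h, and averaged 50.5 ± 5.31 CPM in agb1 and 182 ± 13.0 CPM in WT at 3 h (SD, n = 3 each). The agb1 level of GLK1 was alike at both times and only WT at 3 h was high, a change of -1.62 (SE 0.14, adjusted p = 2.15e-05). Of 13 shoot markers 7 were lower and 1 higher in agb1 at 3 h (13.9% and 11.0% of all loci), with a called change at 1 upward and 4 downward. Their summed level at 3 h was 22100 to 25100 CPM in agb1 and 31300 to 41700 CPM in WT, on the scale of all 24 libraries. At 1 h that sum was 22200 to 27000 CPM in agb1 and 25400 to 30200 CPM in WT, so the genotypes overlapped. The shoot markers include RBCS and LHCB1 genes of the photosynthetic apparatus, so their sum is not a separate reading of shoot tissue. The sum of the 15 root markers was, on the scale of the 12 libraries, 203 to 226 CPM in agb1 and 157 to 193 CPM in WT at 1 h, without overlap, and 186 to 231 CPM in agb1 and 198 to 229 CPM in WT at 3 h. Of the root markers 2 were higher in agb1 at each time, against 0.847% of all loci at 1 h and 11.0% at 3 h. Their median difference was 0.24 at 1 h and -0.06 at 3 h. The part of tissue make-up in these results was not tested, and in whole seedlings fewer cells of a type and less RNA per cell cannot be told apart.

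**Figure D4:**
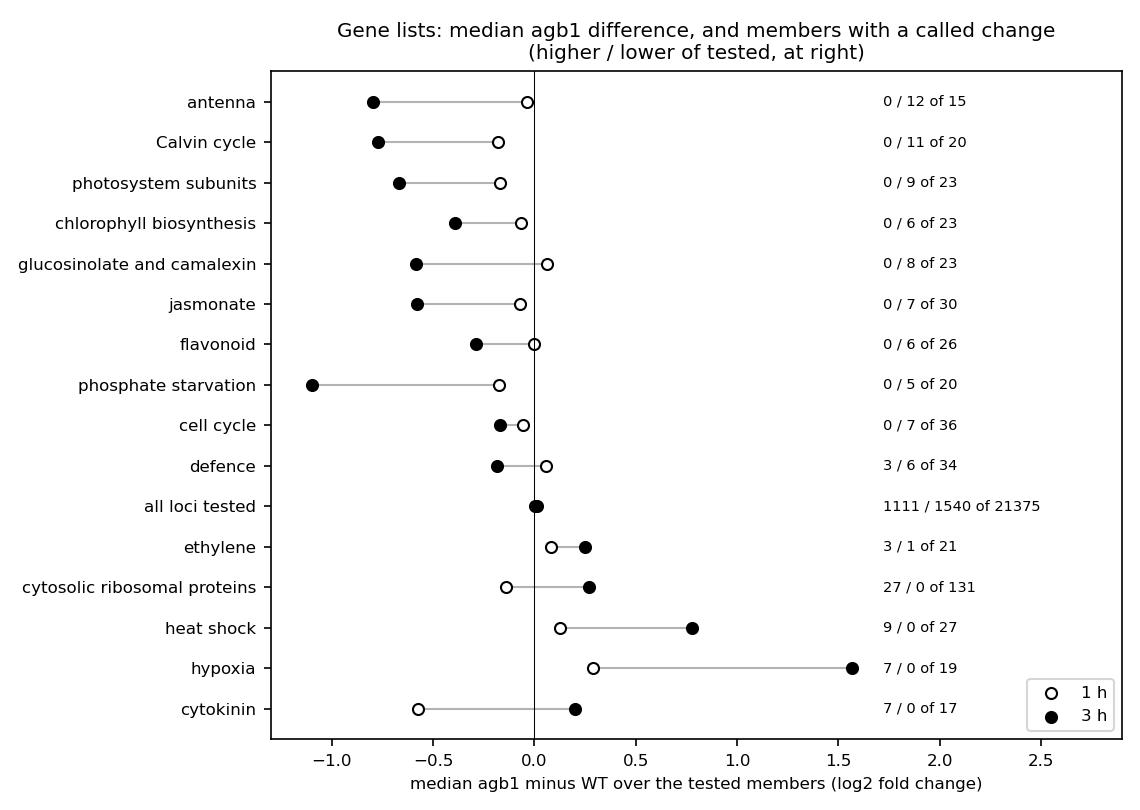
Median agb1 minus WT (log2 fold change) over the tested members of 15 gene lists and over all loci, at 1 h (open) and 3 h (filled), with the numbers of members whose change was called in each direction. Photosynthesis lists move left between 1 h and 3 h, hypoxia and heat shock lists move right, and the cytokinin list crosses 0, with 7 positive called changes.

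Phosphate starvation genes were lower in agb1 at 3 h, at 13 of 20 tested against 13.9% of all loci, with list medians of -0.17 at 1 h and -1.10 at 3 h. SPX1 (AT5G20150), a phosphate sensor gene, stood at 34.3, 44.5 and 34.5 CPM in agb1 and 31.5, 24.7 and 28.5 CPM in WT at 1 h, and at 16.7, 14 and 14.8 CPM in agb1 and 64.9, 62 and 82.1 CPM in WT at 3 h. The change of SPX1 was -2.61 (SE 0.20, adjusted p = 1.04e-05), that of the lipid-recycling phosphodiesterase gene GDPD1 (AT3G02040) -1.90 (SE 0.29, adjusted p = 0.00198) and that of the acid phosphatase gene PAP17 (AT3G17790) -1.13 (SE 0.24, adjusted p = 0.0113). Called changes numbered 5, all negative, against 7.2% of all loci, and DESeq2 added 1 positive. The transporter gene PHT1;1 (AT5G43350) and the master regulator gene PHR1 (AT4G28610) went the other way at 3 h, higher in agb1 by 0.66 and 0.56, without a called change.

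Jasmonate genes were lower in agb1 at 3 h at 16 of 30 tested, and glucosinolate genes at 15 of 23, against 13.9% of all loci. Of the jasmonate enzymes, LOX4 (AT1G72520), AOS (AT5G42650) and OPR3 (AT2G06050) changed by -1.53, -1.07 and -0.47, and the repressor genes JAZ1 (AT1G19180) and JAZ5 (AT1G17380), which jasmonate induces, by -1.11 and -1.41. The change was called at 7 jasmonate genes, all negative, against 7.2% of all loci, and at 4 without WT 1 h replicate 2. Among regulators of glucosinolate synthesis MYB34 (AT5G60890) stood at 34.6, 35.3 and 33.3 CPM in agb1 and 39.2, 39.8 and 50.1 CPM in WT at 1 h, and at 34.9, 31 and 31.5 CPM in agb1 and 68.1, 73.5 and 72.5 CPM in WT at 3 h. Its change was -0.81 (SE 0.14, adjusted p = 0.003), and CYP79B2 (AT4G39950), an enzyme on the route from tryptophan, changed by -0.72 (SE 0.12). In all 8 glucosinolate genes had a called change, all negative (7.2% of all loci), and 5 without WT 1 h replicate 2. In the fit of the 6 libraries of 3 h alone 15 jasmonate and 6 glucosinolate genes were lower in agb1, against 1620 of all loci.

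In the flavonoid list 9 of 26 were lower in agb1 at 3 h (13.9% of all loci), and the 6 called changes were negative (7.2% of all loci), whereas DESeq2 called 8 negative and 2 positive. PAP1 (AT1G56650), the MYB factor that drives anthocyanin genes, averaged 20.6 ± 2.31 CPM in agb1 and 19.2 ± 2.87 CPM in WT at 1 h (SD, n = 3 each), and stood at 1.93, 3.05 and 1.52 CPM in agb1 and 13.6, 13 and 7.87 CPM in WT at 3 h. The change of PAP1 was -2.49 (SE 0.34, adjusted p = 0.000905), and the anthocyanin enzyme gene DFR (AT5G42800) had -3.33 (SE 0.74, adjusted p = 0.0186). BAM5 (AT4G15210), a sugar-induced beta-amylase gene, was lower in agb1 at both times and more so at 3 h. It stood at 6.49, 4.52 and 6.75 CPM in agb1 and 15.1, 15.8 and 24 CPM in WT at 1 h, and at 7.06, 7.37 and 6.53 CPM in agb1 and 70.2, 74.8 and 52.5 CPM in WT at 3 h, a change of -1.61 (SE 0.28, adjusted p = 0.00358).

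Heat shock and hypoxia genes were higher in agb1 at 3 h, each at 11 of 27 and 11 of 19 tested, against 11.0% of all loci, and none was lower. The counts were 11 and 11 also in the fit of the 6 libraries of 3 h alone, where 846 of all loci were higher and 1620 lower. Other lists lost calls in that fit, as given for glucosinolate, ethylene and ribosomal protein genes. AT1G07400, a small heat shock protein gene, stood at 8.1, 12.6 and 7.08 CPM in agb1 and 14.7, 13.3 and 11 CPM in WT at 1 h, and at 64.6, 72.1 and 57.9 CPM in agb1 and 21.8, 15.5 and 10.9 CPM in WT at 3 h. Its change was 2.51 (SE 0.35, adjusted p = 0.00124). AT5G51440, a further small heat shock protein gene, stood at 112, 116 and 111 CPM in agb1 and 50.4, 46.9 and 49 CPM in WT at 3 h, after 41.1 ± 3.85 and 46.5 ± 2.93 CPM at 1 h (SD, n = 3 each), with a change of 1.39 (SE 0.12, edgeR adjusted p = 2.69e-05). HSP90.1 (AT5G52640) and HSP70 (AT3G12580), abundant chaperones, changed by 1.25 and 1.41. The heat shock list had 9 called changes, all positive (5.2% of all loci), and 9 also with RLE scaling, DESeq2, exon length offsets and without WT 1 h replicate 2.

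Hypoxia genes respond to low oxygen through group VII ethylene response factors. ADH1 (AT1G77120), alcohol dehydrogenase of fermentation, was stable, higher in agb1 by 0.99 at 1 h and 1.21 at 3 h, whereas PDC2 (AT5G54960), pyruvate decarboxylase, was called at 1 h alone, by 0.41, without a called change. Without WT 1 h replicate 2 no hypoxia gene was called at 1 h, so neither ADH1 nor PDC2 kept its 1 h call. The transcription factor gene LBD41 (AT3G02550) and the locus AT5G15120, annotated as a putative 2-aminoethanethiol dioxygenase, were higher in agb1 by 2.23 and 2.64 at 3 h, and the transcription factor gene HRA1 (AT3G10040) had a change of 2.16 (SE 0.62, adjusted p = 0.0457). LBD41 stood at 5.04, 19.2 and 9.56 CPM in agb1 and 18.6, 12.9 and 12.7 CPM in WT at 1 h, and at 32.7, 43.9 and 15 CPM in agb1 and 4.1, 7.92 and 7.6 CPM in WT at 3 h. Its libraries were uneven within the agb1 groups, and its change of 2.64 (SE 0.72, adjusted p = 0.0399) kept its call in 12 of 21 alternatives. AT3G27220, a kelch repeat protein gene, changed by 1.58 (SE 0.31, adjusted p = 0.0068). Of the 19 tested hypoxia genes 7 had a called change, all positive (5.2% of all loci), DESeq2 called 9 positive and 1 negative, and 5 had one without WT 1 h replicate 2.

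Ethylene genes, whose receptors and EIN3-binding F-box proteins damp the response, were higher in agb1 at 3 h at 9 of 21 and lower at 2, against 11.0% and 13.9% of all loci, so the share of lower members was under that of all loci. EBF2 (AT5G25350) stood at 109, 135 and 150 CPM in agb1 and 108, 133 and 122 CPM in WT at 1 h, and at 131, 134 and 147 CPM in agb1 and 57.3, 41.3 and 47.6 CPM in WT at 3 h, a change of 1.37 (SE 0.19, adjusted p = 0.000905). The receptor gene ETR2 (AT3G23150) changed by 1.60 (SE 0.26, adjusted p = 0.00245), and the synthesis gene ACS6 (AT4G11280) by -0.74 (SE 0.22, adjusted p = 0.0441), a call lost with RLE scaling and without WT 1 h replicate 2. Of 131 cytosolic ribosomal protein genes 38 were higher and 2 lower in agb1 at 3 h (11.0% and 13.9% of all loci), and the change was called at 27, all positive (5.2% of all loci), with a median of 0.39. With exon length offsets that count was 10 and the median 0.23, and the count was 44 with DESeq2 and 16 without WT 1 h replicate 2. The fit of the 6 libraries of 3 h alone called fewer differences at 3 h. There 5 ethylene genes were higher in agb1 and 1 lower, and 7 ribosomal protein genes higher and 1 lower. Over all loci that fit called 846 higher and 1620 lower.

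Stable loci showed the agb1 difference at similar size at both times. AT5G04380, an S-adenosylmethionine-dependent methyltransferase family gene, stood at 5.76, 8.59 and 7.67 CPM in agb1 and 1.78, 1.91 and 1.57 CPM in WT at 1 h, and at 13, 7.75 and 14.4 CPM in agb1 and 2.98, 1.83 and 3.8 CPM in WT at 3 h. The groups did not overlap at either time, and the difference was 2.07 at 1 h and 2.03 at 3 h, a change of -0.04 with a 95% interval of -0.79 to 0.71. AO (AT5G14760), L-aspartate oxidase of NAD synthesis, stood at 91.1, 112 and 87.7 CPM in agb1 and 46.6, 37.2 and 40.9 CPM in WT at 1 h, and at 93.1, 119 and 172 CPM in agb1 and 46.7, 44.3 and 43.4 CPM in WT at 3 h, a change of 0.29 with an interval of -0.21 to 0.80. TGG2 (AT5G25980), a myrosinase that releases the toxic products of glucosinolates, was higher by 1.40 and 1.15, with an interval of the change of -0.86 to 0.37. UGT84A3 (AT4G15490), a glucosyltransferase gene, was higher by 1.55 and 1.36.

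Among loci lower in agb1 at both times, AT3G05400, a sugar transporter family gene, averaged 6.72 ± 1.15 CPM in agb1 and 15.1 ± 2.04 CPM in WT at 1 h (SD, n = 3 each), and stood at 3.38, 3.83 and 3.2 CPM in agb1 and 9.23, 9.01 and 8.32 CPM in WT at 3 h. Its difference was -1.17 at 1 h and -1.35 at 3 h, with an interval of the change of -0.58 to 0.22. EXPA5 (AT3G29030), an expansin that loosens cell walls, was lower, at -0.93 and -1.20, as was the jasmonate gene AOC1 (AT3G25760), allene oxide cyclase, at -0.66 and -1.12. With exon length offsets no jasmonate gene was called at 1 h, so AOC1 was not stable there. The copper transporter gene COPT6 (AT2G26975) was lower too, at -0.55 and -0.51. The genotypes did not overlap at either time for 102 of the 106 stable loci and for 34 of the 35 reversed ones. These classes need calls at both times in the same libraries, so little overlap was built in and is no separate support. Of all calls, 324 of 324 at 1 h and 5032 of 5327 at 3 h were without overlap. AT5G04380, AT3G05400 and AT5G44572 were stable in all 21 alternatives, AO in 19, and the other 6 stable loci named by the rule in 5 to 16, and AO overlaps a neighbour on the opposite strand. Such neighbours were as frequent among the called changes (25.9%) as among all loci tested (26.1%), and of the loci named here AGG2, XLG1, CSD1, HMA1, FRO3, YSL2, ARR8, ARR9, CKX5, LNK1, LHCB3, CRD1, PSAH2, PAP17, PHR1, ADH1, AT4G27450, EBF2, GDPD1, FAD8, LOX1, AUR1, CDKB2;2, FKF1 and AT1G48830 have one too.

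In which genotype the level differed between the times was read from the same fit. Among the 2651 loci with a called change, 1091 differed between 3 h and 1 h in WT alone, 451 in agb1 alone, 858 in both in the same direction and 244 in both in opposite directions. Over all loci 11588 differed between the times in agb1 (54.2%) and 13250 in WT (62.0%), so a call in either genotype is common. Taking both treatments and all 24 libraries, the 6 WT libraries at 3 h lay all above or all below the other 18 at 476 of the 2651 loci (18.0%), against 3.45% of all loci tested. For the 6 agb1 libraries at 3 h this held at 108 (4.07%), against 1.11% of all loci. For agb1 at 1 h it held at 29 (1.09%, against 1.01%) and for WT at 1 h at 55 (2.07%, against 1.36%). The DMSO libraries of each set also entered the calls of the change. SDH1-2 reached 77.6 to 110 CPM in those 6 WT libraries and 2.72 to 6.83 CPM in the other 18, and POK1 80.8 to 108 and 7.83 to 21.9 CPM. FSD1, ZIP2, SHOC1, LOX2, CSD2, FAD8 (AT5G05580), a plastid fatty acid desaturase gene, and BAM5 also had all 6 WT libraries at 3 h outside the range of the other 18. Whether the time, the handling of that group or another feature of those 6 libraries sets them apart was not tested.

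Further lists held fewer called changes, to be read against 5.2% positive and 7.2% negative over all loci. In the defence list of 34 tested 3 changes were positive, among them WRKY22 (AT4G01250), a transcription factor of early immune responses (1.70, SE 0.27), and 6 negative, among them WRKY70 (AT3G56400), a factor of salicylate signalling (-1.59, SE 0.30). Cell cycle genes had 7 negative called changes of 36, with AUR1 (AT4G32830), a mitotic kinase, at -1.05 (SE 0.22) and CDKB2;2 (AT1G20930) at -0.70 (SE 0.16), and 4 without WT 1 h replicate 2. The sugar starvation list of 28 had 2 positive and 4 negative, and 1 and 2 without WT 1 h replicate 2, with the transcription factor gene BZO2H3 (AT5G28770) at 1.49 (SE 0.21). Nitrogen genes were higher in agb1 at 3 of 25 at 1 h and at 9 at 3 h, against 0.847% and 11.0% of all loci. Their median difference did not grow, at 0.32 and 0.28. With each time fitted on its own 6 libraries 11 and 7 were higher, against 992 and 846 of all loci. The nitrate transporter gene NRT1.1 (AT1G12110) was stable at 0.57 and 0.64, as was RFNR1 (AT4G05390), a root ferredoxin reductase gene, at 0.66 and 1.00. In the lipid list FAD8 at -1.36 (SE 0.15) and LOX1 (AT1G55020) at -1.13 (SE 0.19) were 2 of the 3 negative called changes. Of the brassinosteroid and gibberellin genes BEE3 (AT1G73830) changed by 1.93 (SE 0.36) and BR6OX2 (AT3G30180), the last enzyme of brassinosteroid synthesis, by -0.81 (SE 0.15). The light and shade genes PIF4 (AT2G43010) and PHYB (AT2G18790) changed by -0.97 and -0.48 without a call at either time, and PHYB lost its call in 12 of 21 alternatives. Neither the 29 detoxification genes nor the 15 root markers had a change called by edgeR, with 2 each at an unadjusted p under 0.05 and 1 and 0 called by DESeq2. The 89 plastid-encoded and 24 mitochondrion-encoded loci had none by edgeR, 34 and 11 at an unadjusted p under 0.05 and 1 each by DESeq2, and their medians at 1 h of -3.63 and -4.20 moved with WT 1 h replicate 2. The remaining lists, for auxin, abscisic acid, iron and sulfur deficiency, touch and cold, cell wall expansion, endoplasmic reticulum stress and plastid ribosomal proteins, each had at most 2 called changes in either direction, and the oxidative stress list, which holds FSD1, CSD1 and CSD2, had 1 positive and 5 negative, and 2 negative with RLE scaling or without WT 1 h replicate 2.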

How the data were processed

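RNA-seq of whole seedlings (stranded poly(A) libraries, paired reads, per the labels' protocols) was deposited as raw counts per gene locus, 1 table for each time. The authors aligned reads with STAR to TAIR10 and normalized with DESeq2, per the submitters' processing notes; the counting tool, its strand setting and tool versions are not given in the sources used here. The authors' deposited normalized tables, a signal of counts divided by size factors, served only to check columns.

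The 12 DMSO libraries were fitted jointly with edgeR 4.0.16 (R 4.3.3, robust quasi-likelihood test, TMM scaling, filterByExpr with a minimum count of 10 and total of 15, 21375 of 32833 loci kept), 1 coefficient per group, with Benjamini-Hochberg adjustment and a threshold of 0.05. The procedure was tested on simulated data. It recovered 5.97% of 1.5-fold, 53.7% of 2-fold and 89.4% of 4-fold changes of the genotype difference, with 9 false calls among unchanged loci. A change that was not called may therefore have been missed. The simulated loci had the same mean and spread in every group apart from the added change. They had no outlying library and no tilt with exon length, so the count of false calls may not hold for these libraries. CPM are TMM-scaled. Symbols come from RefSeq TAIR10.1, which matched 32548 loci.

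Alternatives were RLE scaling, DESeq2 1.42.0, other filters, thinning, all 24 libraries, exon length offsets, a replicate block and leaving out each library. Members and lists were chosen with earlier results of these data known. Named loci average at least 5 CPM over the 12 libraries: the 6 largest positive and negative called changes with groups apart at 1 time or more, 5 stable loci of each direction, 3 of each direction specific to each time, 4 reversed of each kind, 2 per list with at least 3 called changes, and the G protein genes. Others were named from their lists after their values were seen. Intervals of the change are 95% (1.96 SE).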

Additional observations from a re-analysis of the deposited data

Results flagged for a closer look

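The difference between the agb1 effects at 3 h and at 1 h was itself tested, by edgeR's quasi-likelihood test of the interaction, and 2651 loci passed. The values in parentheses are the change in log2 units, agb1 minus WT at 3 h less the same at 1 h.

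Among reversed loci the changes were FSD1 (8.02), ARR7 (2.07), ACR4 (1.36) and AT1G08610 (1.22) upward, and SDH1-2 (-5.15), CORI3 (-3.86), G3Pp1 (-3.10) and POK1 (-3.06) downward. Among loci specific to 1 h they were ARR6 (1.47), ARR5 (1.31) and UMAMIT17 (1.45) upward, and AT4G33720 (-3.51), MLS (-2.69) and AT4G14020 (-1.34) downward.

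Among loci specific to 3 h the upward changes of hypoxia and heat shock genes were AT5G15120 (3.02), LBD41 (2.64), AT4G27450 (2.00), AT3G27220 (1.58), AT1G07400 (2.51), AT5G48570 (1.63) and AT5G51440 (1.39). The other upward changes were AT1G52270 (4.38), ZIP2 (2.59), AT3G02620 (1.94), BEE3 (1.93), WRKY22 (1.70), ETR2 (1.60), BZO2H3 (1.49), EBF2 (1.37), AT1G48830 (1.02) and AT5G15260 (0.92). BZO2H3 was reversed with DESeq2 and without WT 3 h replicate 3.

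The downward changes of photosynthesis, chlorophyll and greening genes were GLK1 (-1.62), LHCB3 (-1.43), FBA1 (-1.25), GUN5 (-1.21), CAB2 (-1.21), LHCB2.1 (-1.13), GAPA-2 (-0.99), PSAF (-0.84), CRD1 (-0.71) and PSAH2 (-0.66). Those of jasmonate, lipid, glucosinolate and flavonoid genes were HPL1 (-5.03), LOX2 (-4.03), PAP1 (-2.49), LOX4 (-1.53), MYB12 (-1.47), FAD8 (-1.36), LOX1 (-1.13), MYB34 (-0.81) and CYP79B2 (-0.72). The remaining downward changes were SHOC1 (-5.36), AT5G44440 (-4.05), SPX1 (-2.61), GDPD1 (-1.90), WRKY70 (-1.59), CSD2 (-1.34), AUR1 (-1.05), BR6OX2 (-0.81), PRR3 (-0.76), AGB1 (-0.74), CDKB2;2 (-0.70), FKF1 (-0.63) and FAMA (-0.61). SHOC1 and WRKY70 were reversed with DESeq2 and with all 24 libraries. WRKY70 was specific to 1 h without WT 3 h replicate 3 and without agb1 3 h replicate 2.

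Outside these classes stood BAM5, lower in agb1 at both times (-1.61), and PIF4 (-0.97) and PHYB (-0.48), which were called at neither time.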

How the results depend on the processing

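Of 66 named loci with a called change, 60 kept the call in all 21 alternatives, and AGB1, CDKB2;2, FAMA, LBD41, PHYB and PSAF did not; none turned round. The 1 h counts moved most. With DESeq2 there were 1091 calls at 1 h, 272 stable, 250 1 h specific and 131 reversed loci; with all 24 libraries in the fit 894, 233, 230 and 83; with exon length offsets and replicate block together 134, 48, 36 and 12; and with exon length offsets alone 193 calls, 63 stable and 22 reversed loci. Fits of the 6 libraries of 1 time gave 2057 calls at 1 h and 2466 at 3 h. With calls from those fits, an alternative chosen after seeing the data, 212 loci were stable, 338 1 h specific, 1422 3 h specific and 109 reversed. For these counts the cause was not tested.

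Leaving out 1 library at a time gave 1368 to 3401 called changes, 47 to 587 calls at 1 h and 3968 to 5929 at 3 h. It gave 13 to 175 stable, 12 to 126 1 h specific, 1256 to 2858 3 h specific and 7 to 65 reversed loci, 9827 to 11948 loci between the times in agb1 and 12019 to 13769 in WT.

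Whether replicate numbers pair the samples is not settled by the values. Same-numbered libraries correlated at 0.039, 0.04 and -0.112 at 1 h and at -0.026, 0.225 and 0.16 at 3 h. At 3 h replicates 2 and 3 matched best with their own number in both genotypes, and replicate 1 in neither. With a replicate block 2318 changes were called, 287 loci at 1 h and 5105 at 3 h, with 99 stable, 62 1 h specific, 1953 3 h specific and 28 reversed loci. Thinning to the shallowest library left 2345 called changes.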
